A study of Mus musculus with 22 samples.

Results

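The genes described here are 43 genes of mitosis and the spindle: the kinases and cyclins that start mitosis, the chromosomal passenger complex, the kinetochore, the spindle checkpoint, the mitotic kinesins, condensin and chromosome proteins, and the cytokinesis machinery. They were chosen by gene symbol, with earlier results of these data known. All 43 were found among the 19781 genes of the embryonic stem cell tables and the 19057 genes of the induced pluripotent stem cell table. The mouse cells sequenced carry the Col2.3GFP transgene, whose type I collagen promoter piece switches on green fluorescent protein (GFP) in the osteoblast lineage. The labels give 22 samples in 8 groups, and the question addressed by the groups used here is how stem cells change when they are grown into osteoblast cultures.

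The groups used were undifferentiated embryonic stem cells (ESC, 3 samples), their unsorted osteoblast cultures (ESC-OB, 3) and GFP-positive cells that had been sorted out of cultures of this kind (sorted ESC-OB GFP+, 3). Beside them stood induced pluripotent stem cells before differentiation (iPSC, 2) and their unsorted osteoblast cultures (iPSC-OB, 2). All of them carry the reporter. The differentiated groups passed through embryoid bodies over 6 days (retinoic acid at 0.1 µM between day 3 and day 5) and were collected after 35 to 40 days of differentiation. Passages were 20 to 30 for ESC and ESC-OB and 10 to 20 for iPSC and iPSC-OB, and none was given for the sorted cells. Stem cells were kept on feeder cells or without them in serum-free medium, and an ultra-low-input library kit served for scarce RNA. The labels do not name the samples for either. They also do not say whether replicates came from separate cultures, so p-values measure only the spread between these samples, which may be technical. Calvarial and bone samples were not analysed here.

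Mitosis begins when cyclin B and its kinase Cdk1 are activated, the chromosomes are condensed by condensin, and kinesins and Aurora kinases build the spindle. The checkpoint kinases hold the anaphase promoting complex in check until every kinetochore is attached, and the cell is then divided by the cytokinesis machinery. The messages of these genes are made mainly late in the cell cycle, and pluripotent stem cells are known to cycle fast.

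The deposited files hold 1 estimate per gene and comparison, not values per sample, so each change below is the log2 fold change in the authors' deposited table with its standard error (SE), where a negative value means a lower level in the differentiated cells. A gene "fell" or "rose" where its adjusted p was under 0.05. The ESC-OB and the sorted comparison use the same ESC samples, so their values are given side by side and are not independent. In bulk samples, fewer cells of a type and less RNA per cell cannot be told apart. Library depths, read from the lowest base means, were 6.37 to 10.9 M counts (M for mega) for ESC-OB, 21.2 to 28.5 M for sorted cells, 5.06 to 18.5 M for the 2 ESC libraries that could be read, 9.59 to 16.8 M for iPSC-OB and 9.91 to 12.4 M for iPSC. The iPSC table held 3 iPSC libraries by this reading, against 2 labelled samples. The direction of the changes was read from the pluripotency markers, which are negative in all 3 tables (5 of 5 past the threshold) and so are no separate check of it. Pou5f1 changed by -8.81, -9.78 and -7.97 in the authors' deposited tables for ESC-OB, sorted cells and iPSC-OB. Of 9 osteoblast markers, 6 rose in ESC-OB, 8 in sorted cells and 7 in iPSC-OB, and 1 fell in each, which was Alpl. Some markers of other cell types also rose: 4 of 4 cardiac and 4 of 4 liver or endoderm markers in each comparison, 3 of 4 endothelial markers in each (the other, Pecam1, fell), and 4, 2 and 2 of 4 macrophage markers in ESC-OB, sorted cells and iPSC-OB. Of 4 epithelial markers 2, 3 and 2 rose and 1, 1 and 2 fell, and of 4 neural markers 1, 0 and 1 rose and 1, 2 and 1 fell. Whether such cells have a part in the values below was not tested.

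The mitosis genes fell steeply in both ESC comparisons and much less in the iPSC comparison. In ESC-OB all 43 fell, with a median change of -3.36, in a comparison where 31.0% of the 18208 genes tested fell, 38.6% rose and the median gene stood at 0.26. In sorted cells all 43 fell as well, with a median of -3.53, where 32.4% of 18588 genes fell, 39.1% rose and the median gene stood at 0.28. In iPSC-OB 20 of the 43 fell, none rose and 23 were not called, with a median of -0.85, where 23.1% of 17579 genes fell, 26.1% rose and the median gene stood at 0.15. Of the 43 estimates in iPSC-OB, 42 were below 0 and the other, that of Cdc25c, was 0.17 ± 0.47. The ranges of the changes ran from -4.03 to -2.32 in ESC-OB, from -5.24 to -1.83 in sorted cells and from -2.00 to 0.17 in iPSC-OB.

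Expressed as levels, the 43 genes together took an estimated 8640 CPM in ESC (CPM, counts per M counts of a library), 934.8 in ESC-OB and 710.9 in sorted cells. They took 8574 CPM in iPSC and 5109 in iPSC-OB, or 8401 and 4667 if 3 iPSC libraries are assumed. The ESC and iPSC sums come from tables that were normalised separately, and no test was made between them. Within the sums, Top2a took 104.1 CPM in ESC-OB and 33.67 in sorted cells, and Mki67 took 88.66 and 17.54. The sorted change lay below the ESC-OB change for 29 of the 43 genes and above it for 14. That difference moved with transcript length, as described below. A gene kept between 6.1% (Plk1) and 20.1% (Cdc25c) of its ESC level in ESC-OB, and between 25% (Cdc20) and 112% (Cdc25c) of its iPSC level in iPSC-OB.

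**Figure D1:**
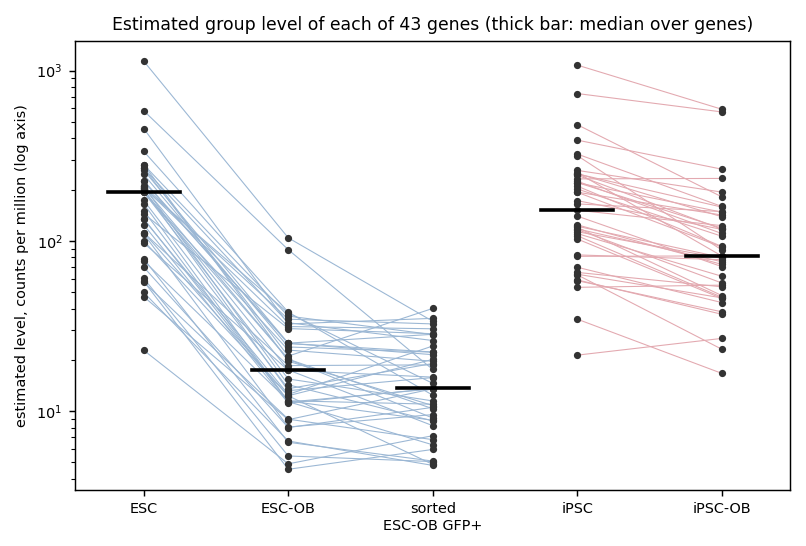
Estimated level of each of the 43 genes in the 5 groups, in CPM on a log axis; each point is a gene, lines join a gene's levels within one fit, and the thick bar is the median over genes. For each gene the ESC level lies far above its ESC-OB and sorted levels, though the ranges over genes overlap in part. The iPSC and iPSC-OB levels overlap over most of their range.

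Genes of late mitosis are known to be controlled through a promoter element called the cell cycle genes homology region (CHR), bound by the DREAM and MuvB complexes, together with CCAAT boxes bound by NF-Y. Promoter windows of 300 bases (250 before the RefSeq start and 50 after it, build GRCm38.p6, which is not the build mm9 of the expression files) were held for 37 of the 43 genes. Both strands were searched, and overlapping matches were each counted. The CHR letters TTTGAA were found in 27 of the 37 windows (73%) and in those of 20.2% of the 27025 genes with a window. A gene was counted if any of its windows held the letters, since some genes have more than 1 start. CCAAT was found in 28 (75.7%, against 41.1%), at least 2 CCAAT matches in 18 (48.6%, against 13.3%), and both CHR and CCAAT in 23 (62.2%, against 7.97%). In the last 150 bases of the window, the CHR letters were found in 25 of 37 (67.6%, against 9.23%). The letters TTTAAA, also searched, were found in 8 windows (21.6%, against 14.9%). Either TTTGAA or TTTAAA was found in 29 (78.4%, against 30.6%). The E2F core letters TTTGGCGC, TTTCCCGC, TTTCGCGC or TTTGCCGC were found in 5 windows, those of Cdk1, Kif15, Kif18a, Ncapd2 and Ncapg (13.5%, against 2.6%). A match is a description of letters and shows no binding.

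The 200 bases before the start are shown for 7 genes that the results below turn on, 5′ to 3′ on the strand of the gene, with matches to TTTGAA or CCAAT on either strand in capitals (TTCAAA and ATTGG are the same letters on the other strand). Mki67 and Top2a had the lowest sorted minus unsorted differences before any centring by length, Cdk1 and Ccnb1 start mitosis, Cdc20 and Espl1 trigger anaphase and Kif11 builds the spindle.
Mki67 (chr7:135716380-135716579, minus strand): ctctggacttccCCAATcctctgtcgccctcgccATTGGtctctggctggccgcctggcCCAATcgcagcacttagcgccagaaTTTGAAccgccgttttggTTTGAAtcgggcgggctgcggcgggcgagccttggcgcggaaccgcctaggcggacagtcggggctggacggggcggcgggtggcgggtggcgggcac
Top2a (chr11:99024190-99024389, minus strand): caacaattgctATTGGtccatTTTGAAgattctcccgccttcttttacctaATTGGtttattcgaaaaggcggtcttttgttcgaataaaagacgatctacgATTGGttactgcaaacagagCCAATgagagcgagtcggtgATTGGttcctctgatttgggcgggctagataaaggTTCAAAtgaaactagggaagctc
Cdk1 (chr10:69352913-69353112, minus strand): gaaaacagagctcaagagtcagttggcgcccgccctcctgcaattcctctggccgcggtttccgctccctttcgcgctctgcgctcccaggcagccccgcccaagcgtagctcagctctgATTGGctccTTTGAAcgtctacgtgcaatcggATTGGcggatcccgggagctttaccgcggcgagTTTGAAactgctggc
Cdc20 (chr4:118437344-118437543, minus strand): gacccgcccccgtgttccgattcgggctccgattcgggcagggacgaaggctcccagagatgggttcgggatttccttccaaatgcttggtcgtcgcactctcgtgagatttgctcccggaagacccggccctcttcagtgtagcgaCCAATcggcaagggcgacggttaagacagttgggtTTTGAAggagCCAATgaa
Kif11 (chr19:37376182-37376381, plus strand): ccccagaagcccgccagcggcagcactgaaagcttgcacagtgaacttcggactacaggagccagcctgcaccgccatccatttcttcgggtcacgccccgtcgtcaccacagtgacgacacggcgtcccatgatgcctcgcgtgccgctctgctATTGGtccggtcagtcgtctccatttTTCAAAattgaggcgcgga
Espl1 (chr15:102296093-102296292, plus strand): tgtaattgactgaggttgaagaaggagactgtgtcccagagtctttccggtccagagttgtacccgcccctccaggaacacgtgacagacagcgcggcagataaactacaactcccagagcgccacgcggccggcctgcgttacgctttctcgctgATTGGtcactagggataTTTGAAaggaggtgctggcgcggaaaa
Ccnb1 (chr13:100786487-100786686, minus strand): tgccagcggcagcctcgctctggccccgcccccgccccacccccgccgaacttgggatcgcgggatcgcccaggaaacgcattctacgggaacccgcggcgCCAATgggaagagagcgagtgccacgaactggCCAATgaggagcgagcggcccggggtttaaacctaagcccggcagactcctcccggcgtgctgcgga
Top2a held 5 CCAAT boxes and 2 CHR matches in these 200 bases, Mki67 held 3 and 2, and Cdk1 held 2 and 2. Cdc20 held 2 CCAAT boxes with 1 CHR match, and Kif11 and Espl1 held 1 of each. Ccnb1 held 2 CCAAT boxes and 0 CHR matches, and it changed by -3.91 ± 0.30 in ESC-OB in the authors' deposited table. Its 200 bases do hold the letters TTTAAA, which were not counted as a CHR match. Melk, Nuf2, Mad2l1 and Ncaph held none of the CHR, CCAAT or E2F core letters in their windows. The 27 genes with a CHR match had median changes of -3.51 in ESC-OB, -3.63 in sorted cells and -0.85 in iPSC-OB, and the 10 without had medians of -3.06, -3.63 and -1.34. These medians are a description of the 2 sets, with no test between them.

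**Figure D2:**
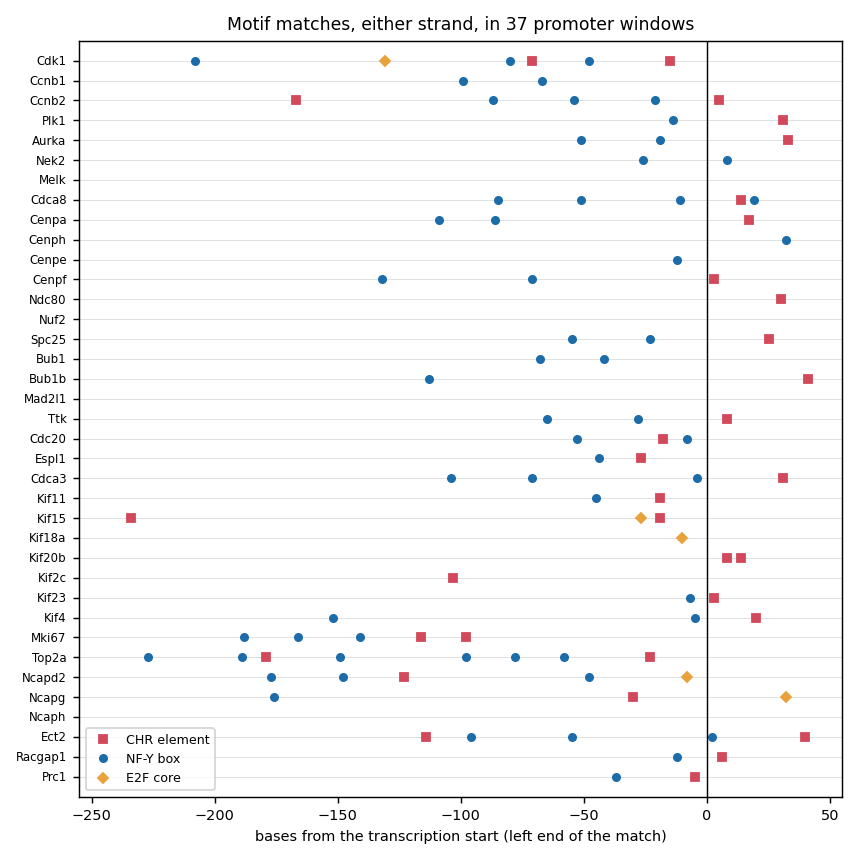
Positions of matches in the 37 promoter windows, in bases from the transcription start, with 1 line per gene; squares are CHR elements, circles NF-Y boxes (CCAAT) and diamonds E2F cores. Of the 37 lines, 27 carry at least 1 square, and 25 carry one in the last 150 bases of the window.

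The kinases, cyclins and phosphatase that start mitosis were grouped with Tpx2, which is none of these. All 10 fell in ESC-OB and in sorted cells, and 6 of 10 fell in iPSC-OB. Cdk1, the kinase at the centre of mitotic entry, changed by -3.26 ± 0.23 in ESC-OB, -3.14 ± 0.22 in sorted cells and -0.72 ± 0.37 in iPSC-OB in the authors' deposited tables (adjusted p = 0.0957 in the last). It kept 10.5%, 11.3% and an estimated 60.7% of the stem cell level. Its partner Ccnb1, cyclin B1, changed by -3.91 ± 0.30, -3.86 ± 0.30 and -1.57 ± 0.41 in the authors' deposited tables, in the same order, and fell in all 3. Ccnb2, the other B-type cyclin of the set, changed by -3.58 ± 0.34, -3.35 ± 0.33 and -0.99 ± 0.41 in the authors' deposited tables (adjusted p = 0.0327 in iPSC-OB). Ccna2, cyclin A2, which acts in S phase and in mitotic entry, changed by -3.48 ± 0.28, -3.76 ± 0.28 and -0.81 ± 0.42 in the authors' deposited tables and was not called in iPSC-OB. The B-type cyclins fell in all 3 comparisons, and Cdk1 and cyclin A2 were not called in iPSC-OB, a contrast between genes that was not itself tested.

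Plk1, the Polo-like kinase that drives spindle assembly and mitotic exit, had the steepest change of the 43 in ESC-OB, -4.03 ± 0.33 in the authors' deposited table, and changed by -3.83 ± 0.33 in sorted cells and -1.23 ± 0.40 in iPSC-OB. Aurka, the Aurora kinase of the spindle poles, changed by -3.77 ± 0.28, -3.34 ± 0.27 and -1.15 ± 0.40 in the authors' deposited tables, and Tpx2, which activates it on the spindle, by -3.06 ± 0.24, -3.47 ± 0.24 and -0.58 ± 0.44. Aurka fell in iPSC-OB (adjusted p = 0.00957), and Tpx2 was not called there (adjusted p = 0.27, 95% interval -1.44 to 0.27). Nek2, a kinase of centrosome separation, changed by -3.12 ± 0.28, -4.52 ± 0.28 and -1.36 ± 0.39 in the authors' deposited tables, and Melk, a kinase of cycling cells, by -2.83 ± 0.21, -2.96 ± 0.20 and -1.32 ± 0.29. Both fell in all 3 comparisons. Cdc25c, the phosphatase that activates Cdk1, had the highest, least negative value of the set in each comparison, -2.32 ± 0.33, -1.83 ± 0.31 and 0.17 ± 0.47 in the authors' deposited tables. It also had the lowest base mean of the set in both fits, 135 and 278.

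The chromosomal passenger complex corrects faulty spindle attachments. Its catalytic kinase Aurkb changed by -3.23 ± 0.36 in ESC-OB, -2.89 ± 0.34 in sorted cells and -0.44 ± 0.42 in iPSC-OB in the authors' deposited tables. Its scaffold Incenp changed by -2.70 ± 0.17, -2.85 ± 0.17 and -0.60 ± 0.44 in the authors' deposited tables, and borealin, Cdca8, by -3.29 ± 0.21, -2.63 ± 0.20 and -0.93 ± 0.42. All 3 fell in both ESC comparisons and none was called in iPSC-OB, where Cdca8 came nearest to the threshold (adjusted p = 0.0519).

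At the centromere and kinetochore, all 7 genes fell in both ESC comparisons and 1 of 7, Cenph, fell in iPSC-OB. Cenph, a subunit of the inner kinetochore, changed by -3.77 ± 0.24, -3.44 ± 0.21 and -1.22 ± 0.27 in the authors' deposited tables (adjusted p = 3.84e-05 in iPSC-OB). Cenpa, the histone H3 variant that marks centromeres, changed by -3.51 ± 0.22, -2.63 ± 0.21 and -0.68 ± 0.47 in the authors' deposited tables. Of the NDC80 complex, which binds microtubules, 3 subunits are among these genes, and they had neighbouring changes in ESC-OB. These were -2.78 ± 0.23 for Ndc80, -3.00 ± 0.29 for Nuf2 and -2.5 ± 0.30 for Spc25 in the authors' deposited table. Their iPSC-OB changes were -0.62 ± 0.45, -0.77 ± 0.35 and -0.12 ± 0.38 in the authors' deposited table. The 95% interval for Spc25 in iPSC-OB ran from -0.85 to 0.62, so a fall of the size seen in ESC-OB lies outside it. Cenpe, the kinesin of the kinetochore, changed by -2.54 ± 0.24, -3.97 ± 0.23 and -0.15 ± 0.48 in the authors' deposited tables, and Cenpf, a large coiled-coil protein of the outer kinetochore, by -3.24 ± 0.26, -4.92 ± 0.26 and -0.73 ± 0.43. Both stood lower in sorted than in unsorted cells, a difference no longer called against genes of like transcript length, as described below.

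The spindle checkpoint and anaphase genes held both of the steepest changes in iPSC-OB, those of Cdc20 and Bub1. Cdca3, a factor of mitotic entry, was counted in this group. All 7 genes fell in both ESC comparisons, with medians of -3.77 and -4.10, and 5 of 7 fell in iPSC-OB with a median of -1.34 over the 7. Cdc20, the activator of the anaphase promoting complex, changed by -3.77 ± 0.27, -2.90 ± 0.26 and -2.00 ± 0.37 in the authors' deposited tables (adjusted p = 4.00e-07 in iPSC-OB). Bub1, a checkpoint kinase of the kinetochore, changed by -3.97 ± 0.36, -4.73 ± 0.35 and -1.78 ± 0.33 in the authors' deposited tables, and its relative Bub1b, BubR1, by -3.94 ± 0.29, -4.86 ± 0.28 and -1.21 ± 0.41. Mad2l1, which holds Cdc20 inactive while the checkpoint is on, changed by -2.69 ± 0.22, -2.74 ± 0.21 and -1.49 ± 0.30 in the authors' deposited tables. Cdc20, Bub1, Bub1b and Mad2l1 fell in every comparison. Espl1, separase, which cuts cohesin at anaphase, changed by -3.75 ± 0.60, -4.23 ± 0.60 and -1.34 ± 0.47 in the authors' deposited tables and fell in all 3, with the widest standard error of the set in both ESC comparisons. Ttk, the kinase Mps1 at the head of the checkpoint, changed by -3.68 ± 0.21, -4.10 ± 0.19 and -0.85 ± 0.40 in the authors' deposited tables, and Cdca3, a factor of mitotic entry, by -3.87 ± 0.32, -3.68 ± 0.31 and -0.83 ± 0.38. In iPSC-OB neither of these was called (adjusted p = 0.0669 and 0.0573).

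**Figure D3:**
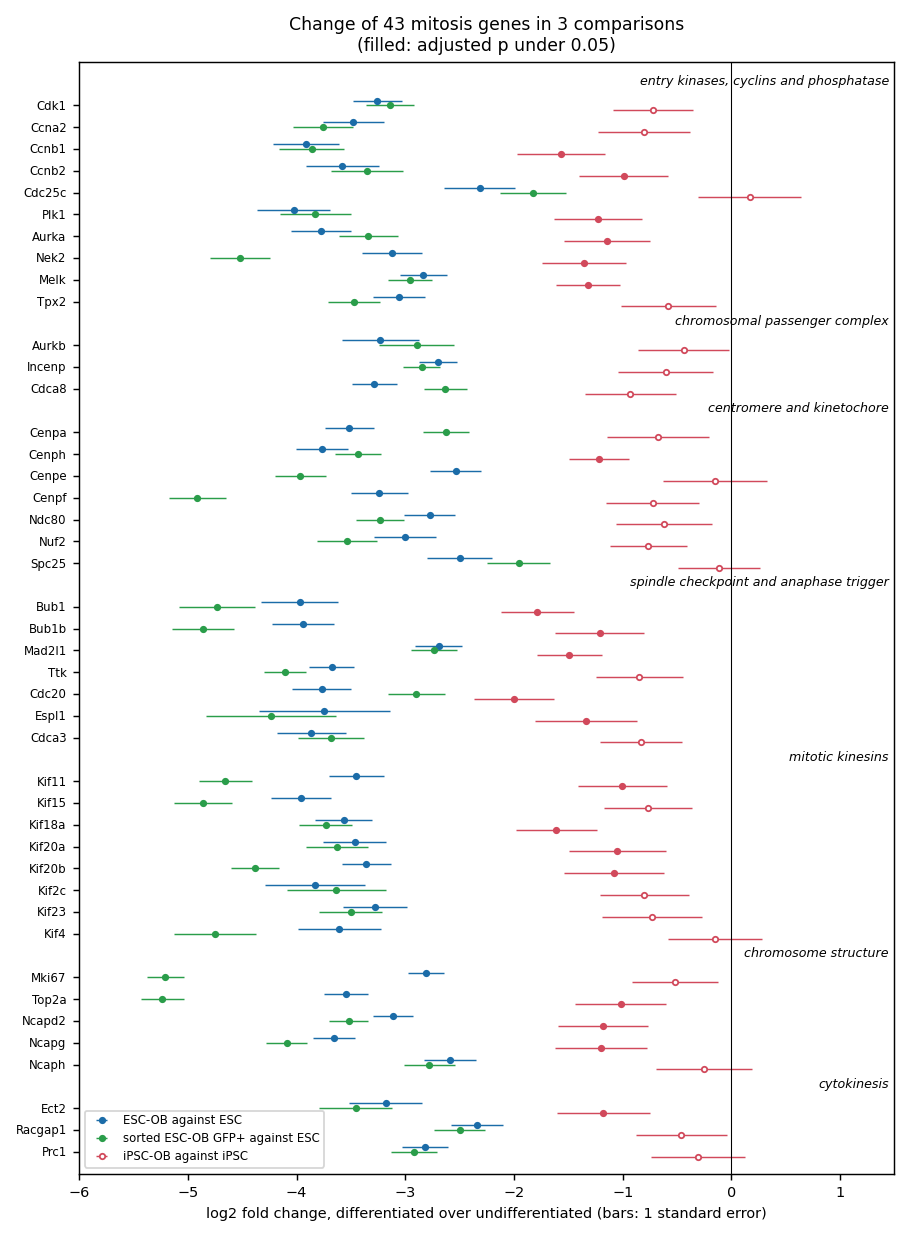
log2 fold change of each of the 43 genes with 1 standard error, in the order of their roles, for ESC-OB and sorted ESC-OB GFP+ against ESC and iPSC-OB against iPSC; filled points passed an adjusted p of 0.05. All blue and green points are filled and lie below -1.8, and 20 of the 43 red points are filled.

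The 8 mitotic kinesins, motors that slide, shorten or carry spindle microtubules, all fell in both ESC comparisons, and 4 fell in iPSC-OB. Kif11, the motor that pushes the spindle poles apart, changed by -3.45 ± 0.25, -4.66 ± 0.25 and -1.0 ± 0.41 in the authors' deposited tables, and Kif15, which can share that task, by -3.96 ± 0.28, -4.86 ± 0.27 and -0.77 ± 0.40. Kif18a, which dampens chromosome movements at the plate, changed by -3.57 ± 0.26, -3.73 ± 0.24 and -1.61 ± 0.37 in the authors' deposited tables, the steepest kinesin change in iPSC-OB. Kif20a and Kif20b, motors of the central spindle and cytokinesis, changed by -3.47 ± 0.29 and -3.36 ± 0.22 in ESC-OB and by -1.05 ± 0.45 and -1.08 ± 0.46 in iPSC-OB in the authors' deposited tables, and both fell in each (adjusted p = 0.0393 and 0.0391 in iPSC-OB). Kif11, Kif18a, Kif20a and Kif20b were thus the 4 kinesins called there. Kif2c, a microtubule depolymerase at centromeres, changed by -3.83 ± 0.46 in ESC-OB and -0.80 ± 0.41 in iPSC-OB in the authors' deposited tables, and Kif23, the motor subunit of centralspindlin, by -3.28 ± 0.30 and -0.73 ± 0.46. Kif4, a chromosome-arm motor, changed by -3.61 ± 0.38, -4.75 ± 0.38 and -0.15 ± 0.43 in the authors' deposited tables. Its level in iPSC-OB was 90.1% of that in iPSC, with a 95% interval of the change from -0.99 to 0.69. Part of its reads and those of Ccna2, Cdc20, Kif20a, Ncapg, Nek2, Plk1 and Prc1 may come from an opposite-strand gene that overlaps an exon (8 of the 43), since the sources used here do not say whether the authors' counting used strand.

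Of the 5 chromosome genes, all fell in both ESC comparisons and 3 fell in iPSC-OB. Mki67, the Ki-67 protein that coats mitotic chromosomes and is widely used as a mark of cycling cells, changed by -2.81 ± 0.17 in ESC-OB, -5.21 ± 0.17 in sorted cells and -0.52 ± 0.39 in iPSC-OB in the authors' deposited tables. Top2a, the topoisomerase that untangles sister chromatids, changed by -3.55 ± 0.20, -5.24 ± 0.20 and -1.02 ± 0.42 in the authors' deposited tables. Mki67 was not called in iPSC-OB (adjusted p = 0.277), and Top2a fell there (adjusted p = 0.0329). The condensin subunits Ncapd2, Ncapg and Ncaph changed by -3.12 ± 0.18, -3.66 ± 0.20 and -2.59 ± 0.24 in ESC-OB in the authors' deposited table, and by -1.18 ± 0.41, -1.20 ± 0.42 and -0.25 ± 0.44 in iPSC-OB. Ncapd2 and Ncapg fell in iPSC-OB, and Ncaph, a subunit of the same complex, was not called (adjusted p = 0.663).

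The 3 cytokinesis genes fell in both ESC comparisons, and 1 fell in iPSC-OB. Ect2, the exchange factor that switches on RhoA at the division site, changed by -3.18 ± 0.34, -3.46 ± 0.33 and -1.18 ± 0.43 in the authors' deposited tables. Racgap1, its partner in centralspindlin, changed by -2.34 ± 0.24, -2.5 ± 0.24 and -0.46 ± 0.42 in the authors' deposited tables, and Prc1, which bundles the central spindle, by -2.82 ± 0.21, -2.92 ± 0.21 and -0.31 ± 0.43. Ect2 was called in iPSC-OB (adjusted p = 0.0139), and the others were not.

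The ESC and iPSC changes were then set against each other. The iPSC-OB change minus the ESC-OB change was above 0 for all 43 genes, and each difference passed a z-test with Benjamini-Hochberg adjustment over the 17139 genes tested in both, of which 12.1% were higher. The median difference over the 43 was 2.45, where the median over all genes was -0.06. The smallest differences were those of Mad2l1 (1.20 ± 0.37, adjusted p = 0.00569), Melk (1.51 ± 0.36), and Cdc20 and Nek2 (1.77 ± 0.46 and 1.77 ± 0.48). The largest were those of Kif4 (3.46 ± 0.57, adjusted p = 3.77e-08), Kif15 (3.19 ± 0.49), Cdca3 (3.04 ± 0.49) and Kif2c (3.03 ± 0.62). As folds, the share of the stem cell level kept in iPSC-OB was 2.30 times the share kept in ESC-OB for Mad2l1 and 11.0 times for Kif4. The estimated starting level of Mad2l1 was 111.6 CPM in ESC and 120 in iPSC, and that of Kif4 was 197.9 and 81.06. These levels come from fits that were normalised separately. The stem cell line, the passage and the fit all differ between these comparisons and cannot be told apart from each other. The pluripotency markers moved in the same way: 4 of 5 were higher by this difference, with a median of 2.94 over the 5. Nanog changed by -11.19 in ESC-OB and -8.04 in iPSC-OB in the authors' deposited tables, and Pou5f1 by -8.81 and -7.97. Median differences of the other marker lists were -1.74 (osteoblast), -2.80 (epithelial), -4.02 (cardiac) and -3.62 (liver or endoderm). They were -3.24 for macrophage, -0.75 for endothelial and 1.16 for neural markers. The smaller iPSC-OB change is thus not shown to be particular to the mitosis genes.

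**Figure D4:**
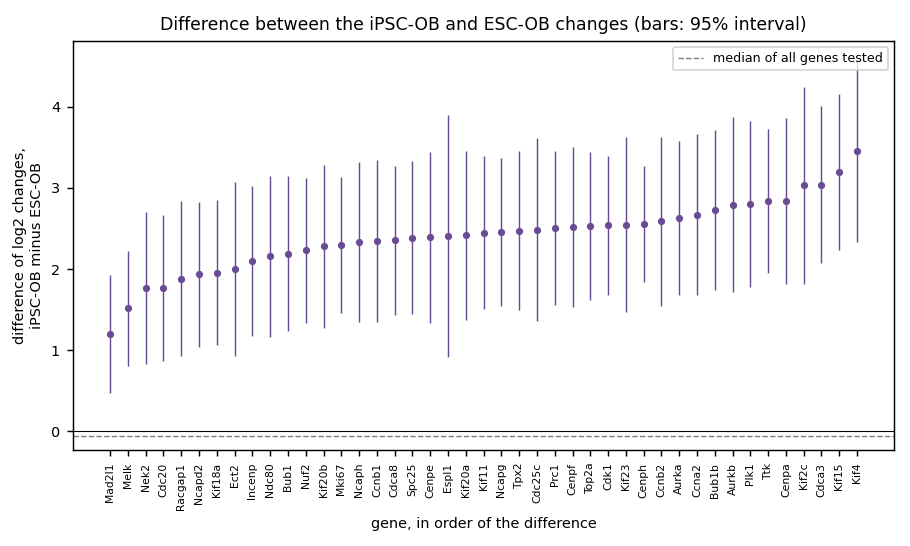
Difference between the iPSC-OB and the ESC-OB log2 change of each of the 43 genes, in order of size, with 95% intervals; the dashed line is the median of all genes tested. Every interval lies above 0, from Mad2l1 at 1.20 to Kif4 at 3.46.

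The spread around the iPSC-OB changes was wide for these genes. Their median SE in iPSC-OB was 0.415, where 7045 other genes of the same base mean range had a median of 0.245, and all 43 stood above that median. In ESC-OB the median SE was 0.262, against 0.191 for 9805 other genes, and 40 of 43 stood above. In sorted cells the values were 0.262 and 0.185, with 40 of 43 above. An uncalled gene in iPSC-OB therefore carried a wide interval, such as -1.45 to 0.01 for Cdk1 and -1.29 to 0.25 for Mki67, and missing the threshold does not show that its level stayed the same.

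Some of the genes differed between GFP-sorted and unsorted cells, though the share of the 43 called lower was near that of all genes. The sorted change minus the unsorted change, which compares sorted ESC-OB GFP+ with ESC-OB, was lower for 7 of the 43 and higher for 1 by the same z-test over 18208 genes, of which 13.4% were lower and 11.8% higher. The lower genes were Mki67 (-2.40 ± 0.24, adjusted p = 4.33e-22), Top2a (-1.69 ± 0.28), Cenpf (-1.68 ± 0.37), Cenpe (-1.43 ± 0.33), Nek2 (-1.40 ± 0.39), Kif11 (-1.21 ± 0.35) and Kif20b (-1.02 ± 0.31). The higher gene was Cenpa (0.89 ± 0.31, adjusted p = 0.0188). Mki67 in sorted cells stood at 19.0% of its level in unsorted cultures, Top2a at 31.1% and Cenpa at 185%. Cdk1 stood at 108% of the unsorted level, Ccnb1 at 104%, Plk1 at 115% and Aurka at 135%, none of them called. The median over the 43 was -0.19, against 0.05 over all genes. The SE used here is too large, because both changes share the ESC samples. With an estimate of the shared part removed, 10 were lower and 3 higher, where 19.3% of all genes were lower and 19.5% higher, and the added genes were Bub1b, Kif15 and Kif4 on the lower side and Cdc20 and Cdca8 on the higher side.

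These differences moved with transcript length. Over the 43 genes, the sorted minus unsorted difference and the transcript length had a Spearman rho of -0.80, and over 10327 genes with a base mean of at least 100 it was -0.57. These are descriptions across genes, which share their libraries and are not independent replicates. In the shortest class (up to 1500 bases) the median difference was 0.65 for 3 of the 43 and 0.68 for 1441 genes of all kinds. In the longest (over 6000 bases) it was -1.43 for 5 of the 43 and -0.97 for 1390 genes. The ESC-OB change itself had a rho with length of 0.10 over the 43, the sorted change one of -0.63 and the iPSC-OB change one of -0.04. Over the 10327 genes these were 0.12, -0.12 and 0.12 in the same order. The transcripts of Cenpf, Mki67 and Cenpe are 11130, 10061 and 7910 bases long, and that of Cenpa 1466.

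When each difference was set against the median of genes of like transcript length, in 20 classes, Mki67 remained lower (-1.17, adjusted p = 1.34e-05), as did Top2a (-1.22) and Nek2 (-1.51), and Ndc80 was added (-0.88). Cenpf, Cenpe, Kif11, Kif20b and Cenpa were no longer called. Of the 43, 38 lay under the median of their length class and 5 over it. Mad2l1, whose longest coding model carries a transcript of 7557 bases around a coding part of 615, was called higher (0.86, adjusted p = 0.0325), having stood at -0.04 before. With classes of coding length in place of transcript length, Mki67 (-1.29), Top2a (-1.04) and Nek2 (-1.61) were lower and none was higher. No share of all genes called under either centring is available here, so these calls are not shown to be particular to the 43. The ribosomal RNA gene Rn45s also differed between these libraries, at 9.0% of the other counts in ESC-OB and 0.445% in sorted cells. The part of the library kit and of RNA quality in these differences was not tested.

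**Figure D5:**
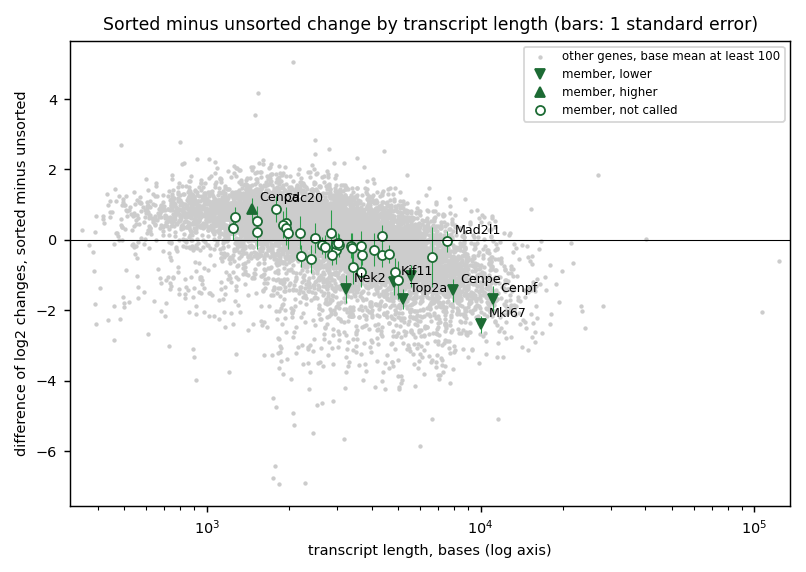
Sorted minus unsorted difference of the log2 changes against transcript length in bases (log axis); grey points are other genes with a base mean of at least 100, triangles are members called lower or higher and open circles members not called, with 1 standard error. The grey cloud slopes down with length, and 38 of the 43 members lie under the median of genes of like length.

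Other cell cycle genes are given beside the 43, in lists chosen by function with earlier results of these data known. Of 83 other mitosis genes, 77 fell and 3 rose in ESC-OB, 78 fell and 1 rose in sorted cells, and 34 fell and 0 rose in iPSC-OB, with medians of -2.78, -2.58 and -0.65. Kntc1, a subunit of the kinetochore RZZ complex, had the steepest change of that list, -5.0 ± 0.19 in ESC-OB and -6.11 ± 0.18 in sorted cells in the authors' deposited tables. Mad2l2, which despite its name also serves DNA repair, rose by 0.91 ± 0.16 and 1.95 ± 0.15 there in the authors' deposited tables. Of 50 DNA replication genes, 49, 48 and 44 fell and 0 rose in the 3 comparisons, with medians of -2.72, -2.69 and -1.57. Rrm2, a subunit of ribonucleotide reductase, changed by -5.10 ± 0.27 in ESC-OB and -2.89 ± 0.16 in iPSC-OB in the authors' deposited tables. In iPSC-OB the replication list thus had 44 of 50 called and the 43 mitosis genes 20 of 43, a contrast between lists that was not tested. The iPSC-OB minus ESC-OB difference was higher for 37 of the 50 replication genes (median 1.30) and for 70 of the 83 other mitosis genes (median 1.84).

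Of 16 anaphase promoting complex genes, 10 fell and 2 rose in ESC-OB, 11 fell and 3 rose in sorted cells, and 5 fell and 1 rose in iPSC-OB. Its inhibitor Fbxo5, Emi1, changed by -4.40 ± 0.33, -4.68 ± 0.31 and -2.30 ± 0.26 in the authors' deposited tables, while its core subunit Cdc16 rose by 0.57 ± 0.14, 0.98 ± 0.14 and 0.95 ± 0.32. Of 12 cohesin genes, 9 fell and 1 rose, 11 fell and 1 rose, and 6 fell and 0 rose, led by the acetyltransferase Esco2 at -5.02 ± 0.27 in ESC-OB in the authors' deposited table. Of 24 transcription regulators of the cell cycle, 19 fell and 2 rose in ESC-OB, 19 fell and 1 rose in sorted cells, and 15 fell and 2 rose in iPSC-OB. Mybl2, the B-Myb partner of MuvB, changed by -3.43 ± 0.28 in ESC-OB in the authors' deposited table, and Rbl2, the p130 pocket protein of DREAM, rose by 1.55 ± 0.19 there and by 1.80 ± 0.26 in iPSC-OB. Rb1 also rose in ESC-OB, by 0.92 ± 0.14 in the authors' deposited table. Trp53 (-3.30 ± 0.14), E2f4 (-1.96 ± 0.20), Rbl1 (-1.66 ± 0.20) and Lin9 (-1.55 ± 0.22) fell there. Whether DREAM or MuvB has a part in the changes was not tested. Of 24 kinesins outside the 43, most of them motors of transport, 4 fell and 16 rose in ESC-OB, 9 fell and 10 rose in sorted cells, and 5 fell and 7 rose in iPSC-OB. Kif26b rose by 5.08 ± 0.43 in ESC-OB and 2.37 ± 0.58 in iPSC-OB in the authors' deposited tables.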

How the data were processed

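RNA sequencing counts had been turned by the authors into 3 tables of comparisons, for which DESeq2, R 3.2.2, STAR 2.4.2a and the build mm9 stand in the submitters' processing notes. The counter and annotation are not given in the sources used here. The values the authors deposited are, per the file headers, the base mean (a signal: counts over size factors, averaged), the log2 fold change and its SE, the test score, and the p-value before and after adjustment. The sign was read from the pluripotency markers. Standard errors level off at 1.89 in the ESC tables and 1.29 in the iPSC table, so folds look shrunk towards 0. Depths and CPM were estimated from the base means with Rn45s left out of the totals. Differences between changes were tested with a two-sided z-test and Benjamini-Hochberg adjustment (Python 3.11.15, numpy 2.4.6, pandas 2.3.3, scipy 1.17.1), tested on simulated data. The 43 genes and all lists were chosen with earlier results of these data known. Any of the 43 may be named, and of the other lists the 2 steepest falls and rises called in each comparison and the markers. Beyond this rule, E2f4, Rbl1 and Lin9 were named. Transcript lengths are from GENCODE M21, promoters from RefSeq (GRCm38.p6). Calvarial and bone samples were not analysed here. Alternatives were other thresholds, filters, centring, scaling of the SE and undoing the shrinkage, of which undoing the shrinkage and centring by length were chosen after seeing the data.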

Additional observations from a re-analysis of the deposited data

Results flagged for a closer look

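The iPSC-OB change lay above the ESC-OB change for 43 of the 43 genes by the z-test of the difference, where 12.1% of all genes did. That share is over genes that rose as well as genes that fell in ESC-OB. Also higher were 70 of 83 other mitosis genes, 37 of 50 replication genes and 4 of 5 pluripotency markers. Between sorted and unsorted ESC-OB, the change was lower for 7 genes (Mki67, Top2a, Cenpf, Cenpe, Nek2, Kif11 and Kif20b) and higher for 1 (Cenpa) by the same test, where 13.4% of all genes were lower and 11.8% higher. The share of the 43 called lower is near that background, and 5 of these 8 calls were lost when centred within transcript length classes.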

How the results depend on the processing

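The counts of 43 genes that fell in ESC-OB and in sorted cells were 43 at a threshold of 0.01, at base means from 100 up, with no filter, re-centred on the median gene, tested against 1 log2 unit and with the shrinkage undone. In iPSC-OB the count went from 20 to 11 at a threshold of 0.01 and to 1 for changes over 1 log2 unit. It rose to 23 at base means from 100 up, and to 24 when re-centred on the median gene or with the shrinkage undone. With no filter it stayed at 20. The iPSC-OB minus ESC-OB count went from 43 to 24 for differences over 1 log2 unit. For sorted minus unsorted cells, 8 were called, with 7 lower and 1 higher. Differences over 1 log2 unit left 1, with 1 lower and 0 higher. A threshold of 0.01 left 0 higher, and base means from 100 up gave 2 higher. Removing the shared ESC part gave 13, with 3 higher. Centring within transcript length classes gave 5, with 4 lower, and within coding length classes 3, with 3 lower and 0 higher. The centred counts have no share of all genes beside them. Mad2l1 turned from -0.04 to 0.86 under transcript length centring, and Kif20b from -1.02 to 0.08 under coding length centring. Re-centring used the median over genes with a base mean of at least 10, which was 0.188 in ESC-OB and 0.206 in sorted cells. No paired analysis was possible because the files hold no values per sample, and for the same reason no replicate could be left out and no other count test or size factors run. The cause of these shifts was not tested. The group of 1 library of the ESC fit, of 4.25 M counts, could not be read.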
